A study of Mus musculus with 12 samples.

Results

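The genes described here encode the machinery that ties a heart muscle cell to the matrix around it. They are the integrin subunits Itgb1, Itga7, Itga5, Itga6, Itgav and Itgb5, the muscle chaperone melusin (Itgb1bp2), the talins Tln1 and Tln2, and vinculin (Vcl). All probe sets that the platform's annotation assigned to 1 of these 10 genes alone were taken, which gave 31 of the 45037 probe sets on the array that are not array controls. Of these, 21 lay above the filter on low signal and were tested, with at least 1 for each of the 10 genes, and 10 lay below it. In hearts that overexpressed either form of ILK, none of the 21 probe sets differed from littermate controls after correction for all probe sets tested. Over all 22519 tested probe sets, the share that differed was 0.204% for the R211A form and 0.00444% for the S343D form, so few were called anywhere.

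Integrin-linked kinase (ILK) was measured here at the level of RNA in the hearts of 12 mice with 1 Affymetrix array per mouse. By the labels, 3 mice carried ILKR211A Tg, in which the lipid-binding domain of human ILK is mutated, 3 carried ILKS343D Tg, in which a phosphorylation site is replaced by an acidic residue, and 6 were WT littermates. Both transgenes were overexpressed in the heart only, and all mice were on the C57BL/6 background and 8 to 9 weeks old. How many founders a genotype came from is not stated by the labels or the methods. The mice are called Tg R211A, Tg S343D and littermate controls below. Replicate numbers 1 to 3 occur in duplicate among the controls, which gives a first and a second control set, and no label ties a set to a transgenic line. Hearts numbered 1 to 6 hold Tg S343D and the first control set, and hearts 7 to 12 hold Tg R211A and the second control set, so all 6 controls were used for each line and each set alone was also compared. The labels name no surgery, although the methods of the study describe groups with infarction, and no comparison by infarction was made.

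Beside 11 mice labelled female, replicate 1 of the first control set is labelled male, but its Xist signals lay within the range of the other hearts. They were 718 against 703 to 864 on the brightest probe set, 529 against 418 to 637 on the next and 58.8 against 35.4 to 71.8 on the dimmest. In this heart the Y-linked gene Eif2s3y had signals below every array's median on both of its probe sets. They were 4.47 against 0.636 to 8.17 in the other hearts, and 8.06 against 0.435 to 5.37, the latter above every other heart. Ilk followed the labels, with a signal 14.6-fold that of the controls in Tg R211A hearts and 5.83-fold in Tg S343D hearts (limma, adjusted p = 3.8e-13 and 1.6e-10). The deposited signals had the same trimmed mean on every array, with medians from 41.5 to 49.1. The tissue label was borne out by 7 of 7 cardiomyocyte markers, the dimmest of which had a mean signal of 4694. In whole-heart RNA, fewer cells of a type and less RNA per cell cannot be told apart. No source used here says that the hearts of a group came from separate litters. The p-values judge differences against the spread between these mice, and any part of litter in them was not tested.

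As background, an integrin is a pair of an alpha and a beta subunit that spans the membrane. Outside the cell the pair binds laminin, fibronectin or other matrix proteins. Inside, talin binds the beta tail and activates the receptor, vinculin links talin to actin, and ILK sits in a complex with PINCH and parvin at the same sites, which in heart muscle are the costameres and the intercalated discs. Beta1 is the main beta subunit of the adult cardiomyocyte, where alpha7 is its laminin-binding partner, and melusin binds the beta1 tail in striated muscle.

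Signals below are the deposited values on a linear scale, and differences are on the log2 scale with 95% intervals from limma, where 0 means no difference. Probe sets of a gene are numbered from the brightest, and levels are never set against each other between probe sets, since probes differ in how strongly they bind. The 3 hearts of a line are given in the order of their replicate numbers and the 6 controls by their lowest, median and highest value.

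Itgb1, the beta subunit that pairs with the alpha subunits among the members, did not pass the test in either line. Its brightest probe set (1452545_a_at) read 1801, 1874 and 1706 in Tg R211A hearts, 1621, 1533 and 1799 in Tg S343D hearts, and 1619.9, 1695 and 1821 in littermate controls. The 3 groups overlapped, with 1 Tg R211A heart above every control and 1 Tg S343D heart below every control. The difference from the controls was 0.08 (-0.05 to 0.21) in Tg R211A hearts and -0.04 (-0.17 to 0.09) in Tg S343D hearts, with adjusted p of 0.86 and 0.995 from limma. The second probe set (1426918_at) read 1285, 1302 and 1317 in Tg R211A hearts, 1168, 1129.8 and 1257 in Tg S343D hearts, and 1161, 1261 and 1346 in the controls. Here every Tg R211A heart was above every Tg S343D heart, by 0.14 on the log2 scale (-0.01 to 0.28, limma adjusted p = 0.61), while both lines overlapped the controls. Probe set 3 (1427771_x_at) did not share this order, with a difference of -0.03 between the lines (-0.21 to 0.16).

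Itga7, the alpha subunit that pairs with beta1 in muscle, had 1 probe set (1418393_a_at), which read 620.0, 593 and 605 in Tg R211A hearts, 606, 614 and 617 in Tg S343D hearts, and 581, 604 and 767 in the controls. All 6 transgenic hearts lay inside the range of the controls. The differences were -0.06 (-0.24 to 0.12) and -0.05 (-0.22 to 0.13).

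Itga6, the alpha subunit of another laminin receptor, had overlapping groups on both of its probe sets. The brightest one (1422445_at) read 675, 649.9 and 579 in Tg R211A hearts, 729.9, 606 and 713 in Tg S343D hearts, and 527, 634 and 748 in the controls. On this probe set no transgenic heart lay outside the range of the controls, and the differences were -0.00 (-0.22 to 0.22) and 0.10 (-0.11 to 0.32). The second probe set (1422444_at) read 429.6, 413 and 372 in Tg R211A hearts and 344, 367 and 475 in Tg S343D hearts, against 326, 381 and 420.0 in the controls, and on it 1 heart of each line lay above every control.

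Itga5, the alpha subunit of the fibronectin receptor, had lower signals in Tg S343D hearts on both tested probe sets, but neither difference passed the correction. The brighter one (1423267_s_at) read 166, 181 and 165 in Tg R211A hearts, 150.3, 169 and 135 in Tg S343D hearts, and 157, 184 and 189 in littermate controls. The dimmer one (1423268_at) read 80.6, 114 and 109.6 in Tg R211A hearts, 89.5, 77.3 and 78.3 in Tg S343D hearts, and 81.8, 108 and 140.5 in the controls. On each, 2 of 3 Tg S343D hearts were below every control and the third was not, so the groups overlapped. In Tg S343D hearts the differences from the controls were -0.24 (-0.45 to -0.03) and -0.43 (-0.79 to -0.08), with unadjusted p of 0.0263 and 0.0203 and an adjusted p of 0.995 for each from limma. The exact permutation test, two-sided over the 84 splits of 3 mice against 6, gave p = 0.0357 and p = 0.0595. Against the first control set alone, which shares the heart numbers of Tg S343D, the differences were -0.22 (-0.47 to 0.03) and -0.27 (-0.65 to 0.11), and against the second they were -0.27 (-0.51 to -0.02) and -0.60 (-0.98 to -0.22). In Tg R211A hearts Itga5 was at -0.06 (-0.27 to 0.14) and -0.14 (-0.49 to 0.22) from the controls.

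Itgav, the alpha subunit of the vitronectin receptors, had 2 tested probe sets, and neither passed the test in either line. The brighter one (1452784_at) read 704, 644 and 575 in Tg R211A hearts, 692, 671 and 665 in Tg S343D hearts, and 513, 642 and 679 in the controls. The dimmer one (1421198_at) read 87.9, 89.8 and 101 in Tg R211A hearts, 75.5, 74.7 and 65.8 in Tg S343D hearts, and 65.0, 81.1 and 103 in the controls. In Tg R211A hearts the differences from the controls were 0.06 (-0.14 to 0.26) on the brighter one and 0.14 (-0.18 to 0.46) on the dimmer one. In Tg S343D hearts they were 0.15 (-0.05 to 0.34) and -0.23 (-0.55 to 0.09), on opposite sides of 0 with intervals that both take in 0. Only on the dimmer one did the lines stand apart, with every Tg R211A heart higher (0.37, -0.00 to 0.74, limma adjusted p = 0.59), whereas on the brighter one the lines overlapped (-0.08, -0.31 to 0.15). On the brighter one the second control set was lower than the first by 0.24 on the log2 scale (interval -0.43 to -0.05, limma unadjusted p = 0.0185 and adjusted p = 0.539).

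Itgb5, a beta subunit that pairs with alphav, had 4 tested probe sets, and 1 of them was higher in every Tg R211A heart than in any other heart. On probe set 3 (1417534_at) Tg R211A hearts read 353, 338 and 342, Tg S343D hearts 294, 295 and 296, and littermate controls 257, 297 and 324. The difference between Tg R211A hearts and the controls was 0.23 (0.06 to 0.41), a 1.18-fold signal, with an unadjusted p of 0.0116 and an adjusted p of 0.473 from limma. The exact permutation test gave p = 0.0357, and the difference was 0.25 against the first control set and 0.22 against the second. The other probe sets of the gene had smaller differences and overlapping groups. Their differences between Tg R211A hearts and the controls were -0.03 (-0.20 to 0.13) for the brightest (1456133_x_at), 0.07 (-0.10 to 0.24) for the second (1417533_a_at) and 0.09 (-0.20 to 0.39) for the fourth (1456195_x_at). The brightest read 900.2, 862 and 979 in Tg R211A hearts against 827, 949 and 1016 in the controls, so that all 3 lay inside the range of the controls. In Tg S343D hearts the 4 differences lay between -0.00 and 0.09.

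**Figure D1:**
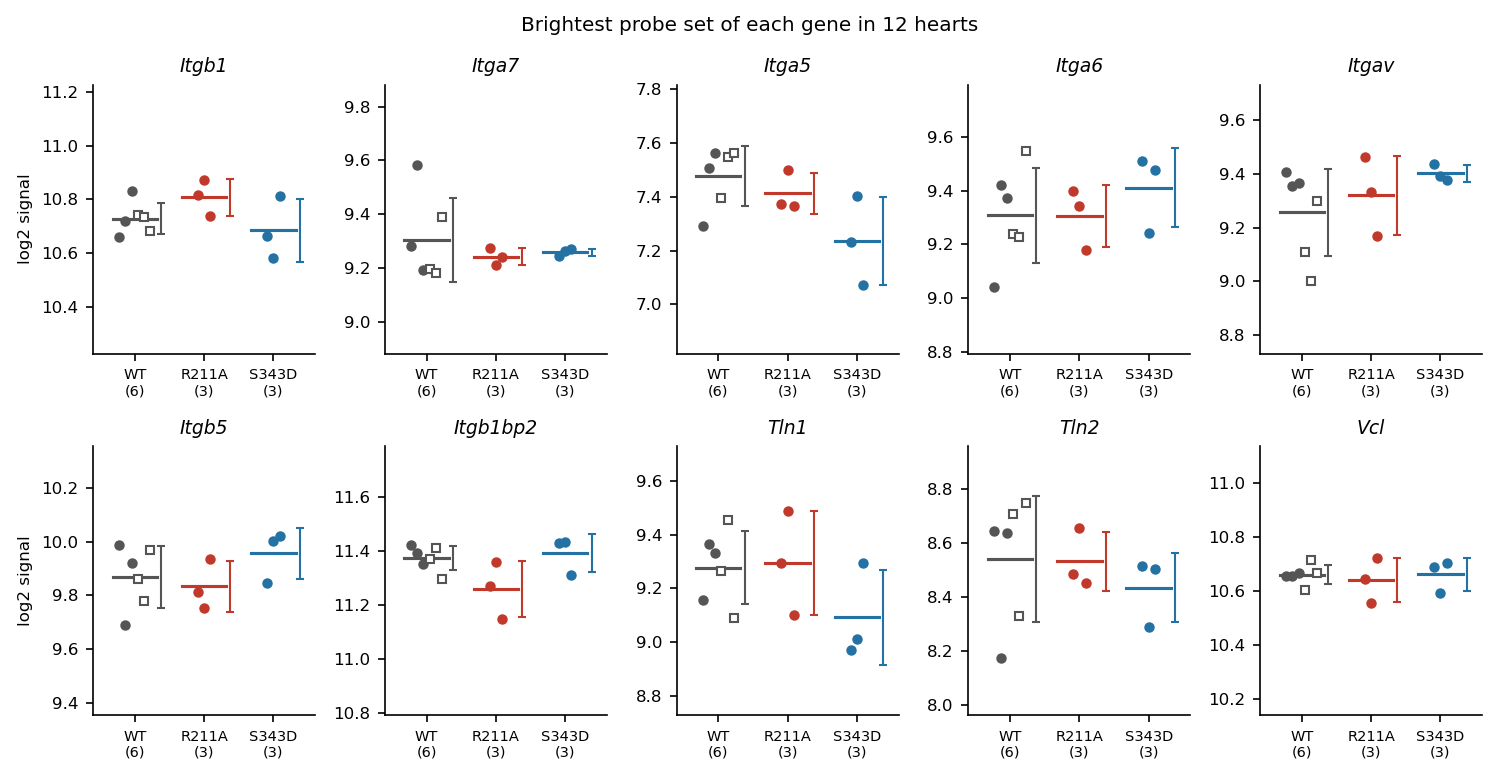
Log2 signal (vertical axis) of the brightest probe set of each of the 10 genes in 6 littermate controls (WT, grey; filled circles first set, open squares second set), 3 Tg R211A hearts (red) and 3 Tg S343D hearts (blue). Points are hearts, horizontal lines are means and bars are 1 SD, every panel spans 1 log2 unit, and the groups overlap in all 10 panels.

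Itgb1bp2, or melusin, which senses stretch through beta1 integrin and acts as a chaperone, had 1 probe set (1423238_at). It read 2469, 2627 and 2269.9 in Tg R211A hearts, 2762, 2765 and 2539 in Tg S343D hearts, and 2514, 2667 and 2743 in littermate controls. In Tg R211A hearts 2 of 3 readings were below every control and the third was within their range, whereas 2 of 3 Tg S343D hearts were above every control. The difference from the controls was -0.11 (-0.24 to 0.01) in Tg R211A hearts, with an unadjusted p of 0.0633 and an adjusted p of 0.689 from limma, and 0.02 (-0.10 to 0.14) in Tg S343D hearts. The exact permutation test for Tg R211A hearts gave p = 0.0357. Without replicate 3, which had the lowest reading, the difference in Tg R211A hearts was -0.06, and without replicate 2, which had the highest, it was -0.16.

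Tln1, the talin found in most cells, did not pass the test in either line. Its brightest probe set (1448402_at) read 627, 717 and 549 in Tg R211A hearts, 502, 516 and 628 in Tg S343D hearts, and 545, 630.3 and 701 in the controls. Of the Tg R211A hearts 1 lay above the control range, and of the Tg S343D hearts 2 lay below it. The differences were 0.02 (-0.20 to 0.23) and -0.18 (-0.40 to 0.03), and on the second probe set (1436042_at) they were 0.18 (-0.12 to 0.48) and 0.05 (-0.25 to 0.35).

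Tln2, the talin of mature heart and brain, read 358, 404 and 351 in Tg R211A hearts, 366, 313 and 363 in Tg S343D hearts, and 288, 399.7 and 431 in the controls on its brightest probe set (1429111_at). All 6 transgenic hearts lay inside the range of the controls, with differences of -0.01 (-0.27 to 0.25) and -0.11 (-0.36 to 0.15). On the second probe set (1435700_at) the differences were 0.01 (-0.28 to 0.29) and 0.18 (-0.11 to 0.46).

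Vcl, the actin-binding partner of talin, gave the steadiest reading of the 21 probe sets. Its brightest one (1416156_at) read 1602.5, 1506.5 and 1688 in Tg R211A hearts, 1653, 1543 and 1667 in Tg S343D hearts, and 1558, 1619 and 1680.2 in littermate controls. The groups overlapped throughout, and the differences were -0.02 (-0.13 to 0.10) in Tg R211A hearts and 0.00 (-0.11 to 0.12) in Tg S343D hearts, the narrowest intervals among the members. The RefSeq promoter table (GRCm38.p6) held 6 of the 10 genes, namely Itgb1, Itga5, Itgav, Itgb5, Tln1 and Vcl. The stretch upstream of Vcl is shown because it alone of the 6 holds a CArG box, the motif bound by serum response factor, in the 250 bases before the start. The box, in capitals, lies 227 to 218 bases before the start on the plus strand, and 1.47% of the 32851 windows of this length in the table hold one on either strand. Both arrangements of adjoining repeats in the heat shock element, GAANNTTC and TTCNNGAA, which each read the same on both strands, were searched in the same windows. The first was found upstream of Itgb5 and in 6.69% of all windows, and the other upstream of Itga5 and Vcl and in 7.17% of all windows.
Vcl, chr14:20929148-20929397, plus strand: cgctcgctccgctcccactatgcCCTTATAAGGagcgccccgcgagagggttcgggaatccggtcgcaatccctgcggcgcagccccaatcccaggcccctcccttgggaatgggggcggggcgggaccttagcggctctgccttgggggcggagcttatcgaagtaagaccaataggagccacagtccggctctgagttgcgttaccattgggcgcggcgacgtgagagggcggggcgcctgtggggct

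The dimmer probe set of Vcl (1416157_at) did not share this steadiness. It read 261, 241 and 286 in Tg R211A hearts, 191, 203 and 233 in Tg S343D hearts, and 214, 269.9 and 296 in the controls. Of the Tg S343D hearts, 2 were below every control and 1 was not. The difference from the controls was -0.31 (-0.56 to -0.07) in Tg S343D hearts, a 0.805-fold signal, with an unadjusted p of 0.0165 and an adjusted p of 0.995 from limma, and an exact permutation p of 0.0714. The control sets themselves stood apart on this probe set, at 226, 214 and 255 in the first and 288, 285 and 296 in the second, a difference of 0.33 (0.10 to 0.55, limma unadjusted p = 0.00761 and adjusted p = 0.481). Against the first set, which shares their heart numbers, Tg S343D hearts were at -0.15 (-0.37 to 0.08), and against the second they were at -0.48 (-0.70 to -0.25, limma adjusted p = 0.53). Tg R211A hearts were at -0.15 (-0.37 to 0.08) from the second set and 0.18 (-0.04 to 0.41) from the first.

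**Figure D2:**
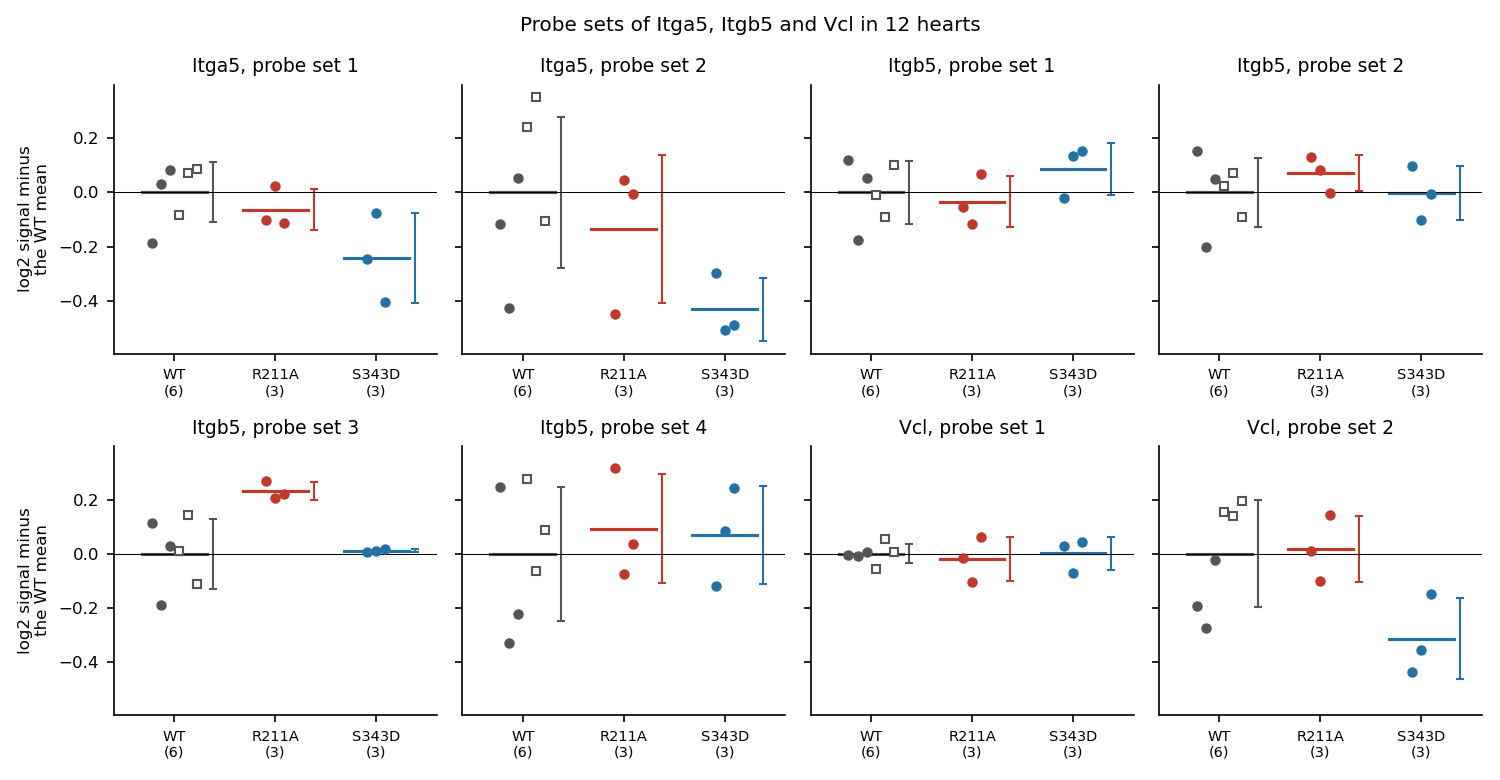
Log2 signal minus the mean of the controls (vertical axis) for the 8 tested probe sets of Itga5, Itgb5 and Vcl in littermate controls (WT, grey; filled circles first set, open squares second set), Tg R211A hearts (red) and Tg S343D hearts (blue), with lines at the means and bars of 1 SD. The Tg R211A hearts stand above the rest on probe set 3 of Itgb5 and not on its other 3 probe sets, and the Tg S343D hearts lie low on probe set 2 of Vcl and not on probe set 1.

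Over all members, 0 of 21 probe sets were called in Tg R211A hearts against controls, where 0.204% of the 22519 tested probe sets were called. It was likewise 0 of 21 in Tg S343D hearts against controls, where 0.00444% were called, and 0 of 21 between the lines, where 0.160% were called. At an unadjusted p under 0.05, the limma fit gave 1 of 21 members in Tg R211A hearts (probe set 3 of Itgb5) against 7.51% of all probe sets. It gave 3 of 21 in Tg S343D hearts (both of Itga5 and probe set 2 of Vcl) against 3.98% of all, and 2 of 21 between the lines (probe set 3 of Itgb5 and probe set 2 of Vcl) against 8.45% of all. The Tg R211A group lay wholly apart from the controls on 1 of 21 members against 4.07% of all probe sets, and the Tg S343D group on 0 of 21 against 2.03%. The lines lay wholly apart from each other on 4 of 21 members (probe set 2 of Itgb1, Itgav and Vcl and probe set 3 of Itgb5) against 15.0% of all probe sets. In each of these 4 the Tg R211A hearts were the higher ones, and 0.1 is the smallest p that an exact permutation test of 3 mice against 3 can give.

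The median log2 difference over the 21 members was 0.02 in Tg R211A hearts, 0.00 in Tg S343D hearts and 0.07 between the lines, beside medians of 0.00, 0.00 and -0.00 over all tested probe sets. The comparisons with the controls share those controls. By mean log2 signal of the brightest probe set, Tg S343D was highest, the controls in the middle and Tg R211A lowest for 4 genes (Itga6, Itgb5, Itgb1bp2 and Vcl), while Tg R211A was highest and Tg S343D lowest for Itgb1 and Tln1. The controls were highest and Tg S343D lowest for Itga5 and Tln2, the controls were highest and Tg R211A lowest for Itga7, and Tg S343D was highest and the controls lowest for Itgav. No neighbours in any of these orders differed after correction.

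A p that misses the threshold does not show that levels were equal, and the intervals give the range of sizes that these hearts allow. For the brightest probe set of each gene they ran, at their widest, from 0.827-fold for Itga5 to 1.20-fold for Itgav in Tg R211A hearts. In Tg S343D hearts they ran from 0.732-fold for Itga5 to 1.27-fold for Itgav. Between the lines they ran from 0.783-fold for Itga6 to 1.37-fold for Tln1. Over all 21 probe sets the widest bounds were 0.579-fold for Itga5 in Tg S343D hearts and 1.67-fold for Itgav between the lines. Members were measured with less spread than the typical probe set, the median SD within a genotype being 0.14 on the log2 scale for the 21 members and 0.18 for all tested probe sets.

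**Figure D3:**
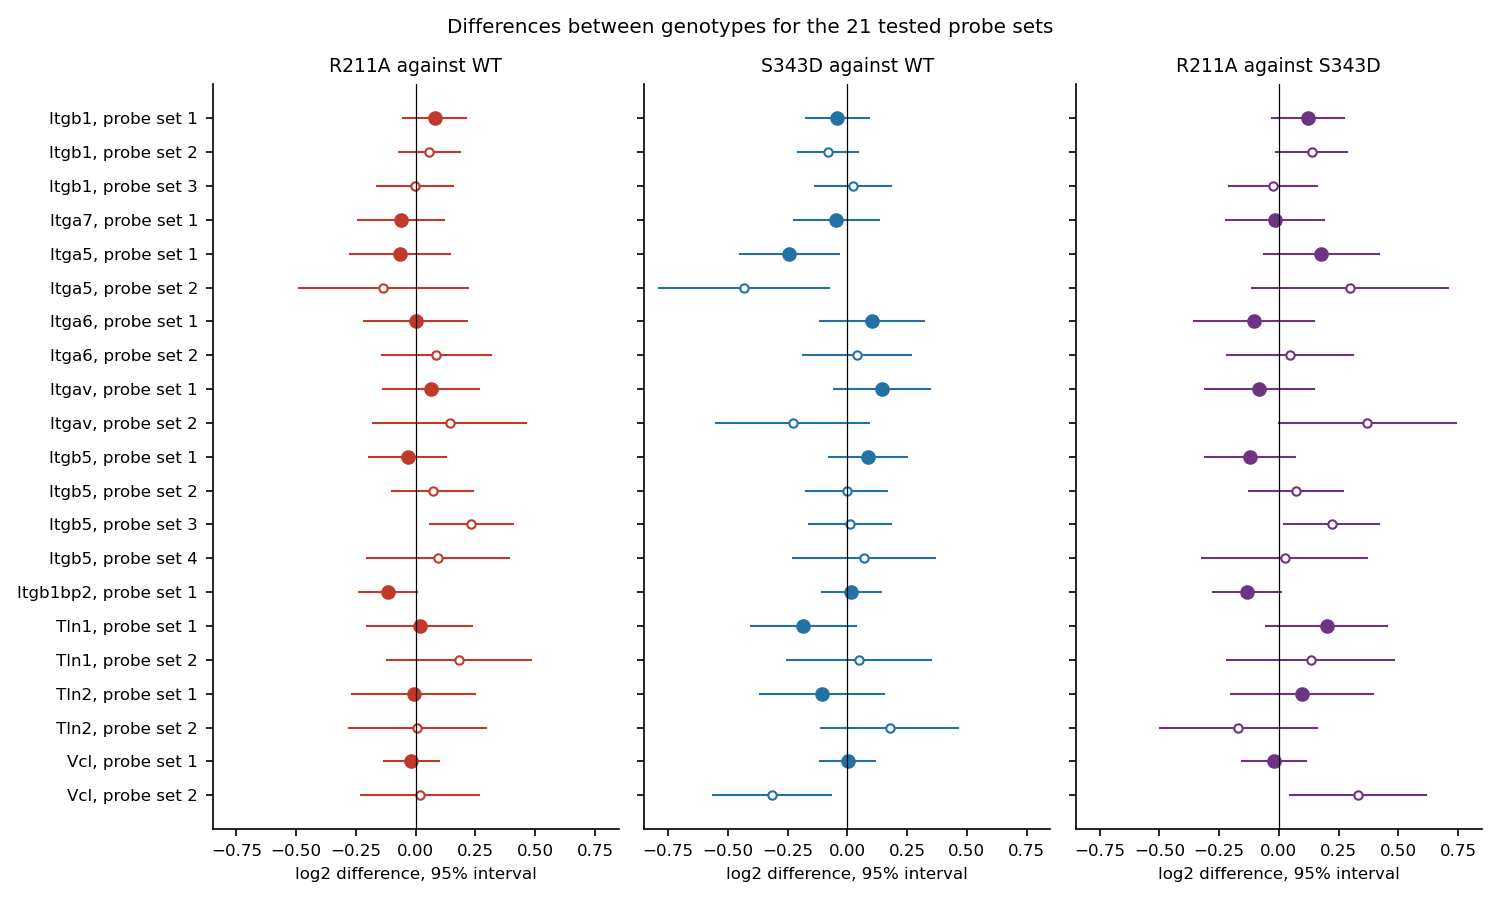
Log2 differences (horizontal axes) with 95% intervals for the 21 tested probe sets in 3 comparisons, where large filled points mark the brightest probe set of a gene and small open points the others. The intervals take in 0 for 20 of 21 probe sets in Tg R211A against controls, 18 of 21 in Tg S343D against controls and 19 of 21 between the lines, before any correction.

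The lines were also compared through the control set that shares their heart numbers. The effect of Tg R211A relative to the second control set minus that of Tg S343D relative to the first was called for 0 of 21 members, where 0.0133% of all probe sets were called, and 1 of 21 had an unadjusted p under 0.05 in limma against 6.96% of all. It was probe set 2 of Itgb1, where this difference of effects was 0.23 (0.03 to 0.43), with an unadjusted p of 0.0248 and an adjusted p of 0.639 from limma. On probe set 2 of Vcl the difference of effects was 0.00 (-0.31 to 0.32, limma unadjusted p = 0.978). The direct difference between the lines on that probe set was 0.33 (0.05 to 0.62). The second control set against the first also gave 0 of 21 members, where 0.00888% were called, and 2 of 21 (probe set 1 of Itgav and probe set 2 of Vcl) at an unadjusted p under 0.05 against 7.99% of all.

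Probe sets of the same gene followed each other only loosely over the 12 hearts. Over the 15 pairs within a gene, Pearson's r of log2 signal had a median of 0.38 and ran from -0.15, for the pair of Tln1, to 0.74, for probe sets 2 and 3 of Itgb5 (Spearman's rho 0.60), with 4 pairs below 0. For Vcl r was 0.19, for Itga5 0.49 and for Itgav -0.13. These values are descriptions over hearts that span small differences, and which transcript ends the probe sets target was not examined. In the maker's naming, the endings x and s mark probe sets that can bind related transcripts, which among the tested probe sets applies to the brightest one of Itga5, probe set 3 of Itgb1 and the brightest and dimmest of Itgb5. The 10 probe sets below the filter had signals from 0.763 to 54.0 and were 3 of Itgb1, 3 of Itgav, 2 of Itga5 and 1 each of Tln1 and Tln2.

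Among all tested probe sets that name 1 gene, those most alike to the brightest probe set of Itgb1 over the 12 hearts were of Elovl5, Ptp4a2 and Capzb, with Pearson's r of 0.93, 0.91 and 0.90 and Spearman's rho of 0.90, 0.88 and 0.87. For Itgb1bp2 they were Prorp, Foxo3 and Eif2b5 (r of 0.91, 0.91 and 0.91, rho of 0.81, 0.94 and 0.87). For Tln1 they were Map2k3, Psmd11 and Ino80 (r of 0.92, 0.92 and 0.90, rho of 0.94, 0.94 and 0.90), and for Vcl Atxn7l1, Npepps and Tmed8 (r of 0.88, 0.86 and 0.84, rho of 0.84, 0.80 and 0.77). Each is the top of 19493 to 19495 probe sets searched on 12 hearts and is given as a description.

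The rest of the adhesion machinery was read from 6 lists with 93 genes, of which 73 were tested. In Tg R211A hearts 2 of the 73 were called, both higher, where 0.206% of the 11189 genes tested were called. They were Ilk, which both lines overexpress by design, and Hsp90aa1, from the list of melusin's partners in the chaperone system. No other gene of the 6 lists was called in any comparison of the genotypes. In Tg S343D hearts 1 of 73 was called, Ilk, where 0.00894% of genes were, and between the lines again Ilk and Hsp90aa1, where 0.152% of genes were. At an unadjusted p under 0.05, limma gave 7, 4 and 8 of the 73 in these comparisons, against 7.52%, 3.79% and 7.85% of all genes. Of the 9 other integrin subunits tested, 0 were called and 0 had an unadjusted p under 0.05 in any comparison, and their median differences were -0.06 in Tg R211A hearts and -0.05 in Tg S343D hearts, beside -0.00 over all genes in both. Itga8 had the smallest p of them in Tg R211A hearts, with signals of 125 ± 50.8 (SD, n = 3) against 95.6 ± 9.26 in the 6 controls (log2 difference 0.32, limma adjusted p = 0.781), followed by Itga4 at -0.23 (limma adjusted p = 0.849).

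In the list of ILK, PINCH, parvin and kindlin, the proteins that hold ILK at the beta tail, 1 of 9 genes was called in each comparison, Ilk itself. Parva and Parvb, the parvins that bind ILK, are named here after their values were seen, as the others of the list at an unadjusted p under 0.05 in Tg R211A hearts. Parva read 279 ± 20.1 (SD, n = 3) against 231 ± 21.0 in the controls, a difference of 0.28 (limma adjusted p = 0.42). Parvb read 762 ± 94.3 in Tg R211A, 616 ± 15.8 in Tg S343D and 673 ± 23.8 in control hearts (SD, n = 3, 3 and 6), with differences from the controls of 0.17 and -0.13 (limma adjusted p = 0.634 and 0.995). The median over the list was 0.10 in Tg R211A hearts and 0.05 in Tg S343D hearts.

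Of 24 adhesion adaptors and kinases, 0 were called and 1 had an unadjusted p under 0.05 in Tg R211A hearts and 0 in Tg S343D hearts, and the median difference was 0.03 in Tg R211A hearts and -0.01 in Tg S343D hearts. Flnc, the filamin of muscle, had the smallest p of them in Tg R211A hearts, at 878 ± 70.2 (SD, n = 3) against 651 ± 121 in the controls (0.45, limma adjusted p = 0.331), and Tns3, a tensin, followed at 0.21 (limma adjusted p = 0.806). Of 18 extracellular ligands, 0 were called and 1 and 3 had an unadjusted p under 0.05 in Tg R211A and Tg S343D hearts, with medians of 0.08 and 0.02. Vtn, which encodes vitronectin, the ligand of the alphav receptors, read 402 ± 27.6 in Tg R211A, 278 ± 49.6 in Tg S343D and 284 ± 35.8 in control hearts (SD, n = 3, 3 and 6). Its difference from the controls was 0.51 in Tg R211A hearts (limma unadjusted p = 0.000734, adjusted p = 0.161) and -0.04 in Tg S343D hearts, and Nid1 followed in Tg R211A hearts at 0.11 (limma adjusted p = 0.811). In Tg S343D hearts Lamb1, Fn1 and Nid1, encoding a laminin chain, fibronectin and nidogen, were the 3 ligands at an unadjusted p under 0.05, with differences of 0.37, 0.31 and 0.18 and a limma adjusted p of 0.995 each. Lamb1 and Fn1 are named after their values were seen. Of 10 genes of the dystrophin complex, the other link between actin and laminin, 0 were called and 0 had an unadjusted p under 0.05 in either line against controls, with medians of 0.00 and -0.05, and Dtna and Sgca came first in Tg R211A hearts at -0.12 and 0.16 (limma adjusted p = 0.721 and 0.776).

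Of 3 partners of melusin in the chaperone system, 1 was called. Hsp90aa1, the inducible Hsp90, read 2847 ± 764 in Tg R211A, 1603 ± 194 in Tg S343D and 1546 ± 76.8 in control hearts (SD, n = 3, 3 and 6), a difference of 0.85 in Tg R211A hearts (limma adjusted p = 0.0044) and 0.05 in Tg S343D hearts. Chordc1, the relative of melusin that binds Hsp90, was at 0.43 in Tg R211A hearts (limma unadjusted p = 0.00349, adjusted p = 0.309) and is named after its values were seen, and Sugt1 was at -0.07. Melusin itself was at -0.11 in the same hearts, with an interval that takes in 0 (-0.24 to 0.01, limma adjusted p = 0.689).

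**Figure D4:**
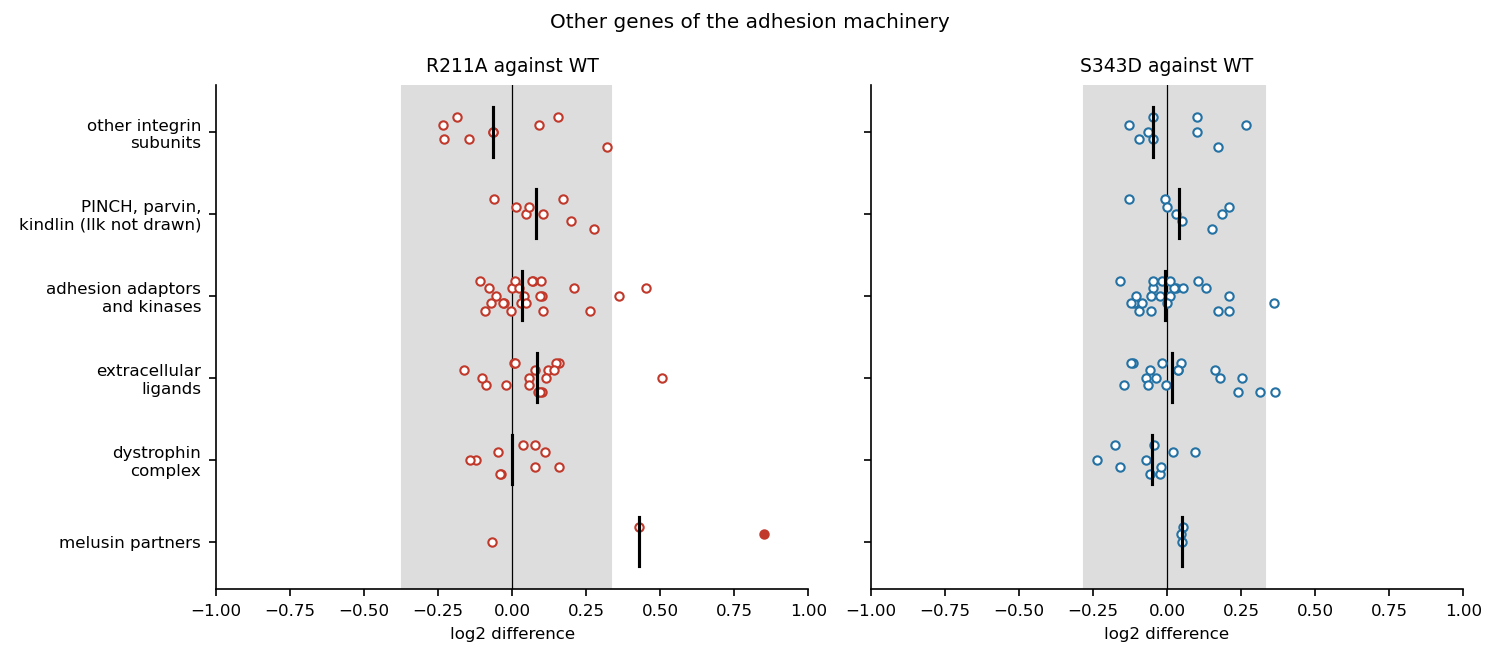
Log2 difference from the controls (horizontal axes) of each tested gene in 6 lists of the adhesion machinery, in Tg R211A hearts (red) and Tg S343D hearts (blue); filled points were called, black bars are list medians and the grey band holds the central 95% of 11189 genes. Ilk, at 3.87 and 2.54, lies beyond the axes and is not drawn, and Hsp90aa1 in Tg R211A hearts is the only filled point.

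Markers of the cells of the heart were read in the same fits, and 0 of them were called by limma. At an unadjusted p under 0.05 it gave Rgs5 in Tg R211A hearts, Myl2, Tek and Cd163 in Tg S343D hearts and 0 markers between the lines, with Myl2 and Cd163 named after their values were seen. The mean log2 signal over 7 cardiomyocyte markers was 13.3 to 13.4 for Tg R211A, 13.2 to 13.3 for Tg S343D and 13.2 to 13.5 for the controls. Over 6 endothelial markers it ran from 9.01 to 9.26, from 8.96 to 9.34 and from 8.99 to 9.20, in the same order of groups. Over 6 fibroblast markers it ran from 9.47 to 9.81, from 9.70 to 9.74 and from 9.32 to 9.75. Over 6 markers of smooth muscle cells and pericytes it ran from 9.00 to 9.05, from 8.81 to 8.96 and from 8.68 to 9.02, and over 6 macrophage markers from 7.92 to 8.04, from 7.94 to 8.23 and from 7.71 to 8.16. The groups overlapped for each of these, except that the Tg R211A hearts lay above the Tg S343D hearts for smooth muscle cells and pericytes. Rgs5, a pericyte gene, was at -0.17 in Tg R211A hearts (limma unadjusted p = 0.0341, adjusted p = 0.632). It went against the rest of its list, in which 5 of 6 markers were above 0, with a median of 0.18. Beside Rgs5, the 2 markers with the smallest p in each of these lists were completed by Tagln, at 0.37, for smooth muscle cells and pericytes. They were Ryr2 and Tnnt2, Tek and Cdh5, Col1a1 and Pdgfra, and Cd163 and Cd68 for the other lists in the order above, with limma adjusted p from 0.687 to 0.947. Of platelet, erythroid and skeletal muscle markers, 3 of 4, 1 of 3 and 1 of 4 were tested, and 0 of the lymphocyte and adipocyte markers lay above the filter. The part of any cell type in the values of Itga5, Itgb5 or Vcl was not tested.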

How the data were processed

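RNA of 12 mouse hearts was measured on Affymetrix Mouse 430 2.0 arrays. The authors deposited MAS5 signal intensities (linear scale), scaled to a common trimmed mean on each array. No MAS5 version is named by the labels or methods, and detection calls were not used here. The probe-level data and the significance lists of the study were not used here. From the deposited signals, log2 values were taken with nothing added and no further normalization. After 64 array controls were left out, 22519 of 45037 probe sets were tested, those whose mean log2 signal reached the median over probe sets, 5.44 or a signal of 43.5. Genes came from the platform's annotation, in which 34945 probe sets name 1 gene, 932 name several and 9160 name none. Genes outside the members were read from their brightest probe set, except that all probe sets of Xist and Eif2s3y were read.

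Genotypes were compared with limma 3.58.1 in R 4.3.3 (linear model, empirical Bayes with a trend, 3 groups and 1 spread over 12 arrays, two-sided), and control sets and differences of effects with 4 groups. A Benjamini-Hochberg adjusted p under 0.05 was a call. Single probe sets were also compared by exact permutation tests, whose smallest p is 0.0119 for 3 mice against 6. Plots were made with matplotlib 3.10.9 (Python 3.11.15). Precision is limited by the number of arrays.

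The members, the lists and the tests were chosen with earlier results of these data known. Named are all probe sets of the members, Ilk, the called genes of each list or otherwise up to 2 genes with the smallest p in Tg R211A hearts, the 3 genes most alike to Itgb1, Itgb1bp2, Tln1 and Vcl, and sex-linked genes. Alternatives covered filters, scaling, an offset, array weights, the arrays in the fit, the controls used, the test, the replicate block, each heart left out and averaging the probe sets of a gene. The procedure was tested on simulated data with planted changes larger than those of the members between genotypes, so that test does not cover changes of their size.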

Additional observations from a re-analysis of the deposited data

How the results depend on the processing

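No member was called under any alternative that kept the Benjamini-Hochberg correction, and over 26 alternatives the lowest adjusted p of the 39 differences followed was 0.29, for probe set 2 of Vcl between the lines with array weights. Leaving out each of the 12 hearts gave from 0 to 0 calls in every comparison. The methods of the study do not say which test gave its array gene list. With no correction, an unpaired t-test on log2 signals passed 2 member probe sets in Tg R211A against controls (Itgb5 probe set 3 and Itgb1bp2). It passed 3 where Tg S343D was set against controls and 4 where the lines were, beside 7.23%, 4.01% and 8.23% of all 22519 probe sets. After Benjamini-Hochberg it passed 0 members. The exact permutation test with no correction passed 2 in Tg R211A against controls and 1 in Tg S343D against controls, beside 7.05% and 3.90% of all probe sets. Replicate numbers showed no sign of pairing the hearts, although so few hearts cannot exclude a pairing. Deviations from the group mean correlated between -0.20 and 0.21 over the 18 pairs with the same number. Over the 36 pairs with other numbers they ran from -0.16 to 0.13, and 4 of 12 hearts correlated best with their own number. With the number as a replicate block, 0 members were called in each comparison. Calls over all probe sets then went from 46 to 52 in Tg R211A against controls. Of 901 alternative values of the 39 differences, 894 moved by less than the SD within a genotype. The other 7 were 6 from averaging the probe sets of a gene, among them Vcl in Tg S343D hearts at -0.16 in place of 0.00, and 1 from centring the arrays on their median, which put the brightest probe set of Vcl at 0.05 in place of -0.02 between the lines. A value on the other side of 0 occurred 59 times, in 20 of the 39 differences, none of them called. For Itga5 the average over both probe sets in Tg S343D hearts was -0.34, with an unadjusted p of 0.00588 and an adjusted p of 0.994 from limma.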
